A study of Mus musculus with 5 samples.

Results

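The retinoblastoma pathway was examined through 7 of its genes: the pocket proteins Rb1 and Rbl1, the transcription factors E2f1, E2f3, E2f5 and E2f6, and Tfdp1, the partner with which E2F proteins bind DNA. The spots were taken by gene symbol from the platform annotation, keeping those with 1 of these symbols alone, which gave 9 of the 17328 spots on the array. Rb1 and E2f5 each had 2 spots and the other 5 genes had 1 each. All 9 entered the tests, since each gave a ratio on at least 4 arrays, and 8 gave one on all 5.

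The study set retina of mutant mice (Rb-) against retina of wild-type mice on 5 spotted arrays with dual-colour labelling, and its title speaks of retinal explants, which are pieces of retina kept in culture. Total RNA of the wild type was in channel 1 of every array and that of the mutant in channel 2, so the 5 arrays form a single group, numbered here in order of deposition. The allele, the promoter behind any Cre, the strain, the age and the time in culture are not stated in the labels, and neither is the number of animals or cultures behind the arrays. The p-values thus take in the array-to-array spread alone, which can be technical.

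All values are log2 ratios of the channels as deposited, from which each array's own median was subtracted, so that 0 is the middle of the array. The medians subtracted were -0.755, -0.025, -0.715, -0.0575 and -0.742 on arrays 1 to 5, so the order of arrays can change with centring. Per the labels the scanner divided the 635 nm signal by the 532 nm signal, but no dye is named for either RNA. A positive value therefore cannot be assigned to the mutant or to the wild type, and signs are given as deposited. Whether the dyes were swapped on any array is not stated either. Means over arrays, tests against 0 and counts of arrays with one sign thus assume the same orientation on all 5 arrays. A ratio holds no expression level, so the presence of retinal markers could not be checked by level. Usable ratios covered 71.8% to 75.9% of spots per array. Arrays differed in spread, with a scaled median absolute deviation of 0.97, 0.48, 0.97, 0.58 and 0.63 log2 on arrays 1 to 5, so the same log2 ratio is less extreme on arrays 1 and 3 than on the others. For this reason the percentile of a spot among all usable spots of its array is given beside the ratio. Markers of rods, cones and ganglion cells were low on arrays 1 and 3, where several of the genes below were high. Of 10 rod markers, 7 had a tested spot, and the median of their 12 spots minus that of all tested spots was -3.89, 0.21, -3.71, -0.40 and 0.07 on arrays 1 to 5. For cone markers, 7 of 7 genes tested with 8 spots, it was -1.11, 0.37, -1.12, 0.39 and -0.36, and for ganglion cell markers, 2 of 6 genes tested with 6 spots, -1.70, -0.01, -1.22, -0.46 and 0.44. For markers of retinal progenitors, 5 of 8 genes tested with 12 spots, it was -0.65, 0.09, -0.11, -0.07 and -0.44. The progenitor list includes Ccnd1, whose spots are also given below among the cyclins upstream of Rb. Horizontal cell markers, 3 of 4 genes tested with 5 spots, went the other way on arrays 1 and 3. Their values were 0.38, -0.31, 0.37, -0.44 and 0.46. Amacrine markers, 3 of 5 genes tested with 4 spots, had -0.70, 0.06, -0.07, 0.11 and 0.29. Markers of Muller glia, 3 of 5 genes tested with 7 spots, had -0.26, 0.05, -0.30, -0.07 and 0.10. The part of these cell types in the results below was not tested.

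Pocket proteins hold E2F factors on the promoters of cell-cycle genes and keep those genes silent. Cyclin-dependent kinases phosphorylate Rb in late G1, E2F is released, and the genes of S phase are transcribed. E2f1 and E2f3 act mainly as activators, E2f5 acts mainly as a repressor with the pocket proteins, and E2f6 represses without binding a pocket protein. In the developing retina Rb is known for its role in the exit of progenitors from the cell cycle and in the maturation of rods.

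Several genes of this network are themselves E2F targets, so the promoter windows of RefSeq (assembly GRCm38.p6, 250 bases before to 50 after an annotated start) were searched for the E2F motif. The forms searched were TTTCCCGC, TTTCGCGC, TTTGCCGC and TTTGGCGC on both strands, none of which overlapped another in the windows shown. Windows were matched by symbol for E2f1, Rbl1, Tfdp1, E2f6 and E2f3, 7 windows in all, and none was given for Rb1 or E2f5. Of these windows 4 held a match, those of Rbl1 and Tfdp1 and the outer window of E2f3. Of all 32851 windows, 2.26% held one. The Tfdp1 windows overlap and hold the same site. By gene, 3 of the 5 members with a window had a match, where 2.60% of 27025 genes did. The stretches with a match are shown 5′ to 3′ on the strand of the gene and stop before the annotated start, with the motif in capitals.
Rbl1, chr2:157204535-157204612, minus strand, motif beginning 18 bases before the start: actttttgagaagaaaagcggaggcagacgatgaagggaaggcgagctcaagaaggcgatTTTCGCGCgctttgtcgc
Tfdp1, chr8:13338648-13338745, plus strand, motif on the opposite strand beginning 43 bases before one start and 96 before the other: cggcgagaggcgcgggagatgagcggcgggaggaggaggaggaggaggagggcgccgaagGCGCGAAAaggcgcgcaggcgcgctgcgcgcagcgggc
E2f3, chr13:29986064-29986134, minus strand, motif on the opposite strand beginning 11 bases before the start: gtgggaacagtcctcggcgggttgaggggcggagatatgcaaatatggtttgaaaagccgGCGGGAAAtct
Rbl1 and Tfdp1 share the form TTTCGCGC, on opposite strands, and E2f3 has TTTCCCGC. A match is a description of these letters and does not show a bound site. The E2f1 window surrounds an annotated start 466 bases inside the outer end of the gene, and that of E2f6 a start 56 bases inside. The Tfdp1 starts lie 26 and 79 bases inside the outer end of the gene, so the Tfdp1 stretch shown runs past that end into the gene. The given windows of E2f1 and E2f6 and the inner one of E2f3 held none of these letter forms.

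E2f1 and Rbl1 were the 2 member spots with a positive ratio on all 5 arrays, and no member spot was negative on all 5. Neither passed the test over all spots. The mean log2 ratio was 1.08 ± 0.80 for E2f1 and 0.87 ± 0.69 for Rbl1 (SD, n = 5 arrays each), which correspond to ratios of 2.11 and 1.83. The other 7 spots lay on both sides of 0 on different arrays, among them both spots of Rb1. Tfdp1 was positive on 4 of 5 arrays, E2f5 was split between its spots, and E2f3 and E2f6 had means close to 0. The sign of a mean this small depends on the centring. Centred on the spots measured on all 5 arrays, which raises every mean over 5 arrays by 0.17, Rb1 probe A, E2f3, E2f5 probe A and E2f6 turned positive, and without centring, which lowers these means, Tfdp1 and E2f5 probe B turned negative, while E2f1 and Rbl1 stayed positive under both.

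**Figure D1:**
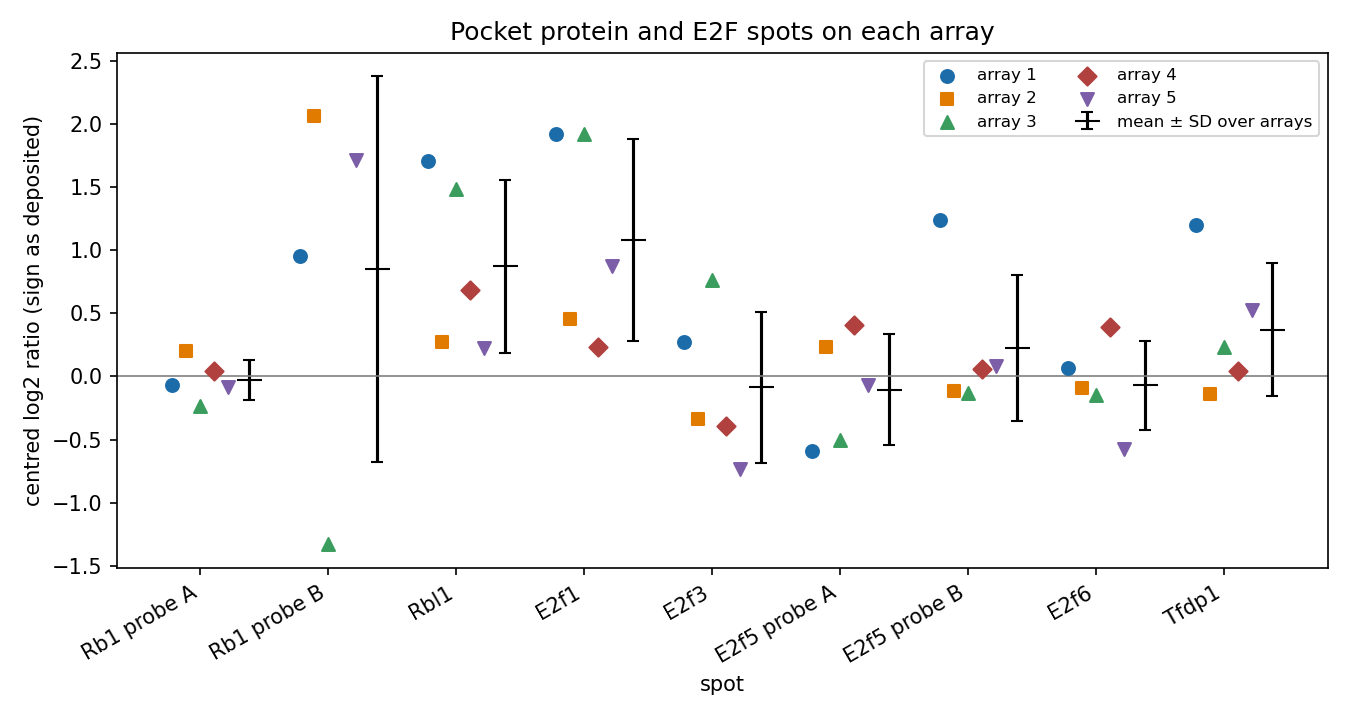
Centred log2 ratio (y axis, sign as deposited) of each of the 9 spots (x axis) on arrays 1 to 5, with the mean and SD over arrays as a bar beside the points. E2f1 and Rbl1 lie above 0 on every array, Rb1 probe A stays between -0.23 and 0.20, and Rb1 probe B runs from -1.33 to 2.06.

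Rb1, the gene targeted in the mutant, encodes the pocket protein pRb and was represented by spots 16891 (probe A) and 13258 (probe B). Probe A gave -0.07, 0.20, -0.23, 0.04 and -0.08 on arrays 1 to 5. These ratios lie close to 0 on every array, at percentiles 43.5 to 61.5. The spread of probe A between arrays, an SD of 0.16, was among the smallest of all tested spots, at percentile 0.638, where the median SD was 0.865. Its mean was -0.03 (p = 0.688 by an exact sign-flip permutation test, two-sided, which with 5 arrays cannot give less than 0.0625), and the sign of this mean turned with the centring and with array 3 left out. Probe B gave 0.95, 2.06, -1.33 and 1.72 on arrays 1, 2, 3 and 5 and no usable ratio on array 4. It was high on arrays 2 and 5, at percentiles 93.2 and 86.7, and low on array 3, at percentile 14.3, with a mean of 0.85 ± 1.52 (SD, n = 4). The same exact test gave p = 0.375 and with 4 arrays cannot give less than 0.125. With 1 array left out its mean ran from 0.45 without array 2 through 0.56 without array 5 to 1.58 without array 3, the last with a limma adjusted p of 0.529. Which part of the Rb1 transcript either spot detects, and which part the allele removes, is not given here, so neither spot checks the labels.

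Rbl1 encodes p107, the pocket protein that is itself made in cycling cells and that carries an E2F motif in the window shown above. It gave 1.70, 0.27, 1.48, 0.68 and 0.23 on arrays 1 to 5. All 5 values are positive, the highest on arrays 1 and 3 and the lowest on arrays 5 and 2. Ranked within the arrays, Rbl1 stood at percentiles 84.6, 64.9, 83.0, 78.5 and 58.4. The limma p was 0.0343 before and 0.432 after Benjamini-Hochberg adjustment over all 10036 tested spots, and the exact sign-flip test gave 0.0625, the smallest possible. Its ratio turned negative on array 5, to -0.52, when the deposited values were taken without centring.

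E2f1 encodes the E2F best known for driving entry into S phase, and in excess also cell death. It gave 1.92, 0.45, 1.92, 0.23 and 0.88 on arrays 1 to 5. The values on arrays 1 and 3 are nearly equal and above those on arrays 5, 2 and 4. Ranked within the arrays, E2f1 stood at percentiles 86.7, 72.6, 87.8, 60.7 and 75.7. As deposited, without centring, the ratios were also positive on all 5 arrays, from 0.14 on array 5 to 1.20 on array 3. The lowest array was thus array 4 with centring and array 5 without it. The limma p was 0.0212 before and 0.432 after Benjamini-Hochberg adjustment, and the exact sign-flip test gave 0.0625, again the smallest possible.

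The arrays were scanned at 2 focus positions, arrays 1, 2 and 3 at position 10 and arrays 4 and 5 at position 0. Within the first scan group E2f1 had a mean of 1.43 and Rbl1 of 1.15, and within the second 0.55 and 0.45, so both stayed positive in each group with a smaller size in the second. E2f3 had 0.23 in the first and -0.56 in the second, and these groups hold too few arrays for a test between them. With arrays 1 and 3 both left out, E2f1 had 0.52 and Rbl1 0.39, with limma adjusted p of 0.664 and 0.712. Over the alternatives tested the adjusted p ran from 0.332 to 0.664 for E2f1 and from 0.382 to 0.712 for Rbl1. The lowest for E2f1 came without centring, where its mean was 0.62 and its limma p before adjustment was 0.153.

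**Figure D2:**
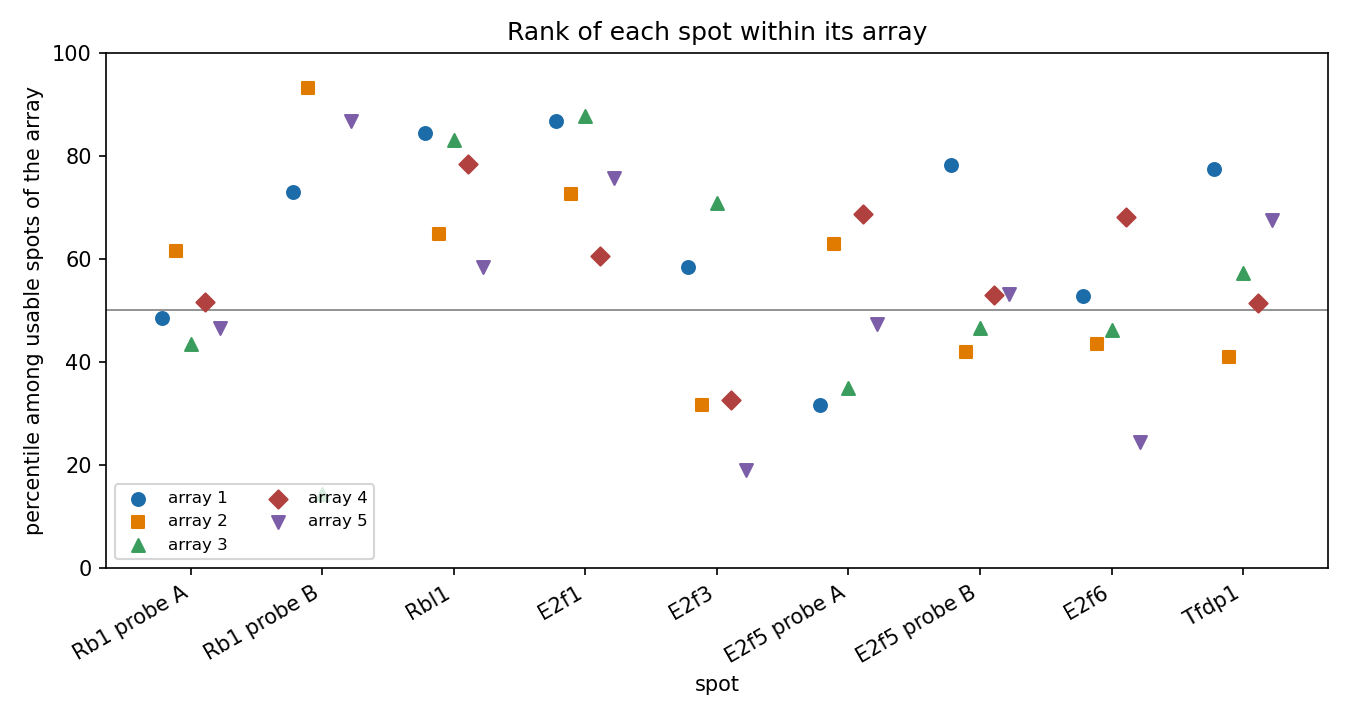
Percentile of each spot (x axis) among all usable spots of the same array (y axis, 50 is the middle) on arrays 1 to 5. E2f1 lies between 60.7 and 87.8 and Rbl1 between 58.4 and 84.6, while E2f3 ranges from 19.1 to 70.8.

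E2f3, an activator E2F made in forms that start from different promoters, gave 0.27, -0.34, 0.76, -0.39 and -0.73 on arrays 1 to 5. It was positive on arrays 1 and 3 and negative on arrays 2, 4 and 5, with its lowest standing on array 5 at percentile 19.1. The mean was -0.08 ± 0.60 (SD, n = 5), and without array 5 it was 0.08. The single spot does not tell the forms apart.

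E2f5 is a repressor that works with the pocket proteins p107 and p130, and its spots are 2092 (probe A) and 12667 (probe B). Probe A gave -0.59, 0.23, -0.50, 0.41 and -0.06 on arrays 1 to 5, low on arrays 1 and 3 and high on array 4, with a mean of -0.10 ± 0.44 (SD, n = 5). Probe B gave 1.24, -0.12, -0.13, 0.06 and 0.08, close to 0 except on array 1. Its mean of 0.23 ± 0.58 (SD, n = 5) became -0.03 without array 1.

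E2f6, a repressor that acts with polycomb proteins, gave 0.07, -0.09, -0.15, 0.39 and -0.58 on arrays 1 to 5. It was highest on array 4 and lowest on array 5, with a mean of -0.07 ± 0.35 (SD, n = 5) that turned to 0.06 without array 5. Tfdp1, which encodes DP1, gave 1.20, -0.14, 0.23, 0.04 and 0.53. It was high on array 1 and near 0 on arrays 2 and 4, with a mean of 0.37 ± 0.52 (SD, n = 5) that was 0.16 without array 1. Adjusted over all tested spots, limma p-values of the member spots other than E2f1 and Rbl1 ran from 0.559 for Rb1 probe B to 0.964 for Rb1 probe A.

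Counted together, 0 of the 9 member spots passed limma at an adjusted p under 0.05, where 0.0% of all 10036 tested spots passed in either direction and the unmoderated per-spot test also called 0. At an unadjusted limma p under 0.05, 2 member spots were positive, E2f1 and Rbl1, and 0 were negative. Among all tested spots 5.52% were positive and 5.9% negative at that threshold, and among tested spots with a single gene symbol 3.35% and 6.18%. That split rests on the centring, with 554 positive and 592 negative spots as centred here, 792 and 362 when centred on the spots measured on all arrays, and 270 and 1837 without centring. Without array 1 the member count was 0. Without array 3 it was 1, Rb1 probe B, and without array 4 it was 1, E2f1. Of the 8 member spots measured on all arrays, 2 were positive on all 5, against 4.01% of all spots and 3.39% of single-symbol spots, and 0 were negative on all 5, against 11.2% and 12.8%. The median of the 9 member means was 0.23, and that of all tested spots was -0.16.

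The order of the members changed from array to array. E2f1 was the highest member on arrays 1 and 3, Rb1 probe B on arrays 2 and 5, and Rbl1 on array 4, where Rb1 probe B had no ratio. E2f3 was the lowest on arrays 2, 4 and 5, E2f5 probe A on array 1 and Rb1 probe B on array 3. By mean ratio the order ran from E2f1 through Rbl1, Rb1 probe B, Tfdp1, E2f5 probe B, Rb1 probe A, E2f6 and E2f3 to E2f5 probe A. In all 8 neighbouring pairs of this order the mean difference was smaller than its own SD over arrays. E2f1 exceeded E2f3 on 5 of 5 arrays, by a mean log2 difference of 1.16 ± 0.46 (SD, n = 5; two-sided exact sign-flip p = 0.0625). Rbl1 exceeded E2f3 on 5 of 5 arrays by 0.96 ± 0.32 (SD, n = 5; the same exact p). Of the 36 pairs of member spots, 9 reached the smallest exact p their arrays allow, each with E2f1 or Rbl1 as the higher spot, and none was below 0.25 after Benjamini-Hochberg adjustment over the 36.

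The closest pair of profiles among members was E2f5 probe B and Tfdp1, with a root mean square difference of 0.258 log2 over the 5 arrays. E2f1 and Rbl1 differed by 0.425. The most distant pair measured on all arrays was E2f1 and E2f5 probe A, at 1.62.

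The genes with more than 1 spot showed how far a single spot can be taken to stand for its gene. The Rb1 spots differed by -1.02, -1.86, 1.10 and -1.80 log2 (probe A minus probe B) on arrays 1, 2, 3 and 5, and had the same sign on 2 of 4 arrays. The E2f5 spots differed by -1.83, 0.35, -0.37, 0.35 and -0.15 on arrays 1 to 5, and also had the same sign on 2 arrays, of 5. The mean absolute difference was 1.44 for Rb1 and 0.608 for E2f5. Across 1463 pairs of tested spots that share a single gene symbol, from 989 genes, the median of this difference was 1.06, so the E2f5 pair lay at percentile 24.1 and the Rb1 pair at percentile 65.8 of such pairs. In 58.1% of these pairs both spots had a mean of the same sign. Among the 790 pairs with both spots measured on all arrays, as in E2f5, the median of the mean absolute difference was 0.732. E2f1, Rbl1, E2f3, E2f6 and Tfdp1 have no second spot against which to set their values.

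**Figure D3:**
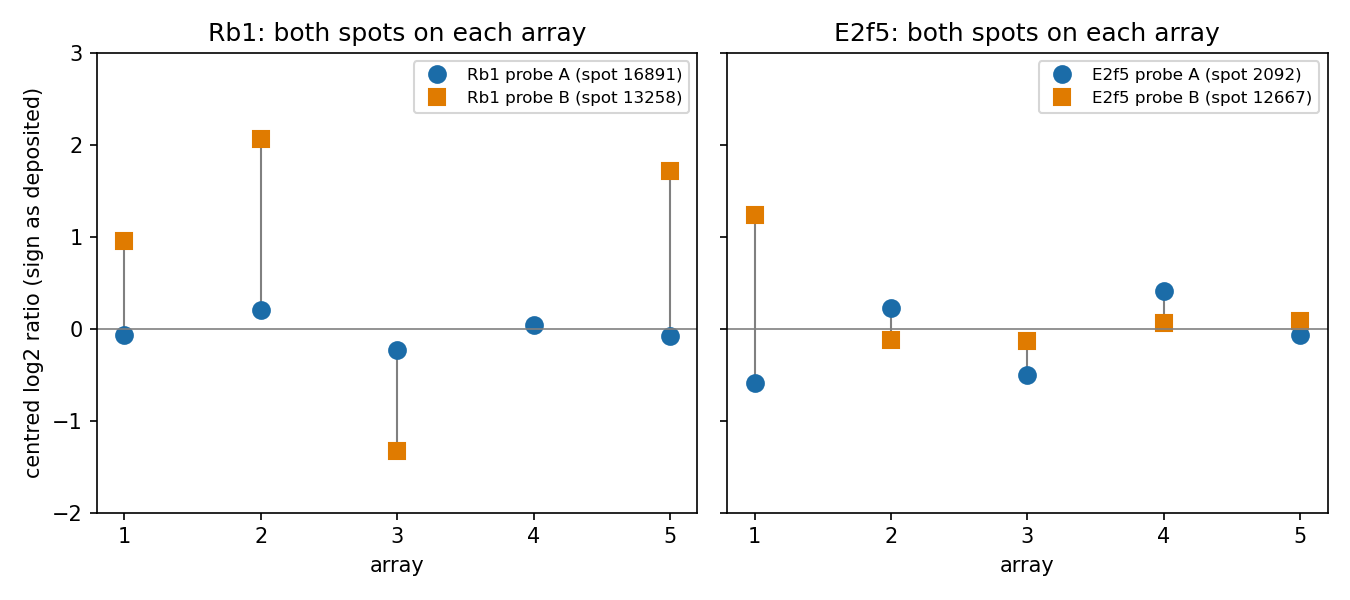
Centred log2 ratio (y axis, sign as deposited) of both spots of Rb1 (left) and of E2f5 (right) on each array (x axis), with a line joining the spots of an array. The Rb1 spots are more than 1 log2 unit apart on all 4 arrays where both were measured, and the E2f5 spots are far apart, by 1.83, only on array 1.

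The spots most like E2f1 were sought among 4419 spots of other single-symbol genes measured on all arrays, by root mean square difference of the log2 ratio. The closest were Cdc25a at 0.364, Dhx29 at 0.409, Rbl1 at 0.425, Sinhcaf at 0.436 and Igfbp2 at 0.447, where the median over all candidates was 1.71. Cdc25a encodes a phosphatase that activates cyclin-dependent kinases, Dhx29 an RNA helicase of translation initiation, Sinhcaf a part of a Sin3-histone deacetylase complex and Igfbp2 a binding protein of insulin-like growth factors. The closest Cdc25a spot, chosen for its likeness to E2f1, gave 1.44, 0.51, 1.79, 0.81 and 1.16 on arrays 1 to 5. The other Cdc25a spots had means of -0.16 and 0.04, and the other Dhx29 spots measured on all arrays had -0.49 and 0.32. The 5 spots closest to Rb1 probe A were those of Cd40, Selenof, Uimc1, Hdac6 and Tnfrsf4, at 0.0814 to 0.127. The median over all candidates was 0.657. Since they were chosen for their likeness to a spot close to 0, that they lay there too follows from the choice. The other Hdac6 spot had 0.10 ± 0.40 (SD, n = 5). Cd40 and Tnfrsf4 encode receptors of the tumour necrosis factor family, best known from immune cells.

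The wider network was described with lists of its other genes. No single-symbol spot was listed for the remaining pocket protein, E2F and DP genes (Rbl2, E2f2, E2f4, E2f7, E2f8 and Tfdp2). The MuvB core joins p130 or p107 and E2F in the DREAM complex, which represses cell-cycle genes, and later in the cycle joins Myb and Foxm1, which activate them. Of these genes, 4 of 8 were tested, and 0 passed. Their median minus that of all tested spots was 1.05, 0.31, 0.66, -0.01 and 0.58 on arrays 1 to 5. Rbbp4, a histone chaperone of that core, gave 0.89, 0.14, 0.83, 0.43 and 0.13, positive on all 5 arrays with a mean of 0.48 ± 0.36 (SD, n = 5). It was the only one of the 4 with a single sign throughout.

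Of the polycomb partners of E2f6, 7 of 13 genes were tested with 11 spots, and 0 passed. The list median minus all spots was 0.59, 0.22, 0.56, 0.29 and -0.26 on arrays 1 to 5, and none of its 9 spots measured on all arrays kept one sign. Rnf2, a ubiquitin ligase of histone H2A, had 0.17 ± 0.32 (SD, n = 5). Of the chromatin proteins and cofactors that bind Rb, 14 of 24 genes were tested with 16 spots, and 0 passed. Their list median stayed near that of all spots, from 0.01 on array 2 to 0.28 on array 1. Of the 16 means, 9 were positive and 7 negative. Of the 14 spots measured on all arrays, 0 were positive and 2 negative on all 5, against 3.39% and 12.8% of single-symbol spots. At an unadjusted limma p under 0.05, this list and the polycomb list each had 1 positive spot and 0 negative. Among single-symbol spots 3.35% were positive and 6.18% negative. Hdac1, the histone deacetylase recruited by pRb, had 0.17 ± 0.32, and Arid4a, an Rb-binding protein, had 0.67 ± 0.84 (SD, n = 5 each).

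Of the cyclins, kinases and inhibitors upstream of Rb, 13 of 21 genes were tested with 25 spots, and 0 passed. Of the means, 11 were positive and 14 negative. At an unadjusted limma p under 0.05, 2 spots were positive and 1 negative, against 3.35% and 6.18% of single-symbol spots. Ccnd1, the D-type cyclin that starts Rb phosphorylation, is also in the progenitor list above. Its 4 spots had means of -0.09, -0.34, -0.52 and -0.99. On array 1 these ran from -2.18 to -1.28, on the negative side where E2f1 was highest. The Cdk4 spots measured on all arrays had means of -0.03 and -0.17.

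Among these pathway lists the E2F targets had medians farthest from all spots on arrays 1, 3 and 4, while the MuvB list was farther on arrays 2 and 5. Without arrays 1 and 3 the mean over arrays was 0.29 for the MuvB list, 0.20 for the targets of G1/S and 0.23 for those of mitosis. For targets of G1/S and S phase, 27 of 63 genes were tested with 35 spots, and the list median minus that of all spots was 1.54, 0.06, 1.65, 0.61 and -0.06 on arrays 1 to 5. For targets of G2 and mitosis, 26 of 46 genes were tested with 33 spots, and it was 1.86, 0.06, 1.46, 0.70 and -0.08. None of these spots passed over all spots. At an unadjusted limma p under 0.05, 8 of the 35 spots were positive and 0 negative. Among the 33 it was 7 positive and 0 negative. These lists hold single-symbol spots only, of which 3.35% were positive and 6.18% negative at that p. Among all spots it was 5.52% and 5.9%. Of the spots measured on all arrays, 4 of 31 and 3 of 24 were positive on all 5. That share was 3.39% among single-symbol spots and 4.01% among all spots. Both lists were near 0 on arrays 2 and 5, where E2f1 had 0.45 and 0.88, and above 0 on array 4, where E2f1 was lowest at 0.23.

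**Figure D4:**
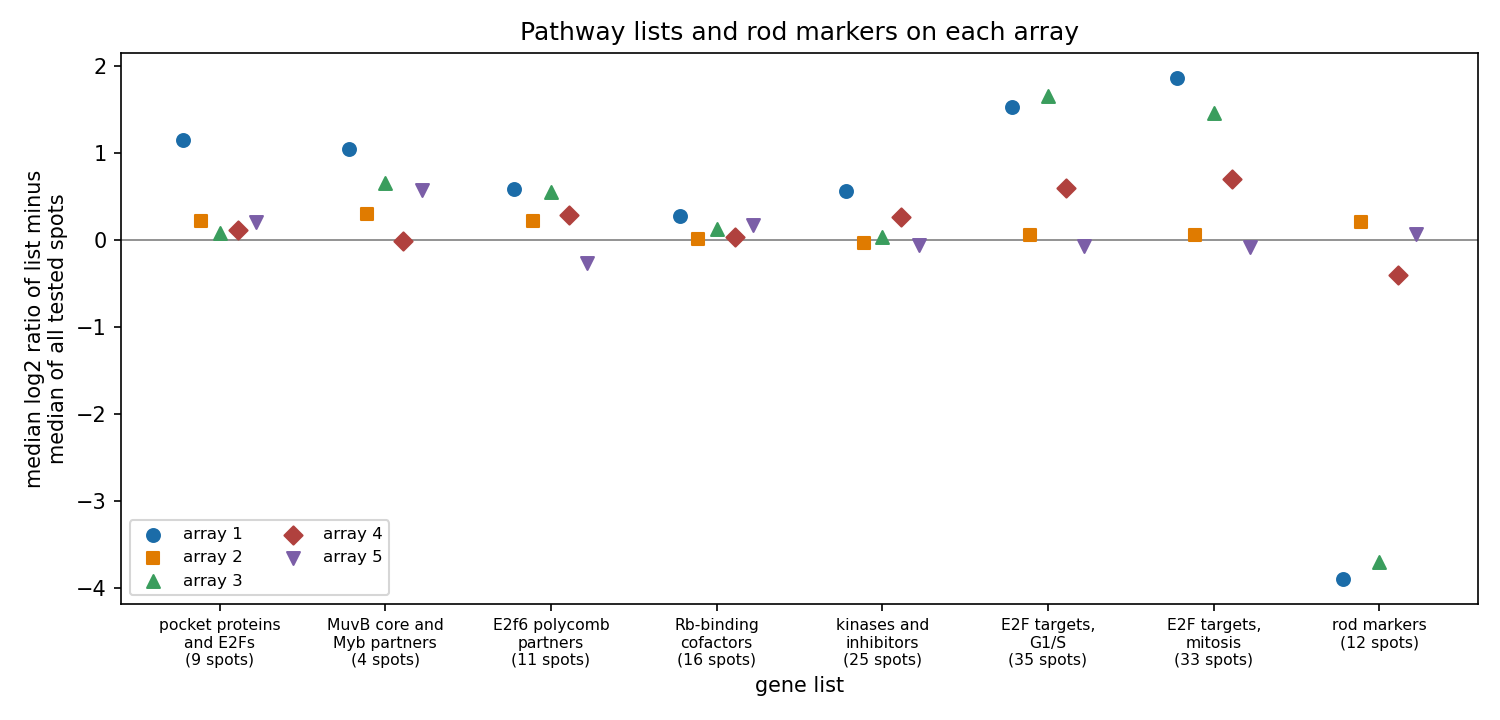
Median log2 ratio of the spots of each list minus the median of all tested spots of the same array (y axis, sign as deposited), for the pocket protein and E2F genes, 6 lists of their pathway and the rod markers (x axis), on arrays 1 to 5. Both lists of E2F targets lie above 1.4 on arrays 1 and 3 and within 0.1 of 0 on arrays 2 and 5, and the rod markers lie below -3.7 on arrays 1 and 3.

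Among single targets, Pcna gave 1.21, -0.07, 1.88, 1.20 and 0.34 on arrays 1 to 5, and Rrm2, a subunit of ribonucleotide reductase, had a mean of 0.85 ± 1.13 (SD, n = 5). Each was highest on array 3 and negative on 1 array. Ccna2, the cyclin of S phase and G2, was positive on all 5 arrays on 1 of its 3 spots, which had a mean of 0.90 ± 0.85 (SD, n = 5), and its other spots had 0.53 ± 0.44 and 0.07 ± 0.78. Top2a, the topoisomerase of mitotic chromosomes, gave 5.32 on array 3 and -0.81 on array 2, with a mean of 2.60 ± 2.68 (SD, n = 4). Birc5, which encodes survivin, gave 2.43, -0.25, 0.79, 0.99 and -0.44. As in Rb1 and E2f5, the spots of a gene could part, with Ccne1 at 1.13 ± 1.27 on one and -0.22 ± 0.27 on the other, and Mcm6 at 1.41 ± 1.54 and -0.03 ± 0.48 (SD, n = 5 each).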

How the data were processed

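The deposited table holds log2 ratios of the channels of each array, per the values themselves. Per the labels, spots were read with GenePix Pro 4.1.1.29 using local background subtraction, and no normalization was applied. What left some cells empty is not given in the sources used here. Cells at 16.61, a filler, numbered 106 to 141 per array and were set to missing, and each array was centred on its median. The 192 ACTB control spots were left out of tests. Symbols came from the platform annotation and were updated by gene identifier through RefSeq (GRCm38.p6), which held 7663 spots.

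Spots with ratios on at least 4 arrays were tested against 0 with limma 3.58.1 (R 4.3.3, lmFit and eBayes, Benjamini-Hochberg over 10036 spots, threshold 0.05). The procedure was tested on simulated data with the same spread on every array and no missing ratios, unlike the real arrays. Single spots were also tested by exact sign-flip permutation. Lists were described without a test. The members, the lists, the pathway genes to be named and the alternatives were chosen with earlier results of these data known. Named spots were all member spots, the 5 spots most like E2f1 and like Rb1 probe A, and pathway genes listed by name, of which 14 of 31 had a spot. Several of these are given in the text. Probe A is the spot measured on more arrays or, failing that, with the lower number. The number of arrays limits the precision.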

Additional observations from a re-analysis of the deposited data

Results flagged for a closer look

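A test for 1 array standing apart from the rest was made on 16 results, and 2 met it. Chance alone would give 0.8 if all arrays had the same spread. They did not, and array 1, where both results stood apart, was among the widest. The number that chance gives with unequal spread was not tested. The first was E2f5 probe B, at 1.24 log2 on array 1 while the remaining arrays ran from -0.13 to 0.08. The second was the median of the 9 member spots minus that of all tested spots, at 1.16 on array 1 while the remaining arrays ran from 0.08 to 0.22. E2f5 probe B is among these 9 spots, so the second result is not independent of the first.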

How the results depend on the processing

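E2f1, Rbl1 and Rb1 probe B kept a positive mean under every alternative that gave one, and no alternative brought any spot past an adjusted p of 0.05. Centred on the spots measured on all 5 arrays, the means of Rb1 probe A, E2f3, E2f5 probe A and E2f6 turned to 0.14, 0.082, 0.062 and 0.096. With arrays scaled to a common spread or quantile-normalized, Rb1 probe A turned to 0.0088 and 0.012. Without centring, E2f5 probe B and Tfdp1 turned to -0.23 and -0.088. On arrays of focus position 10 alone E2f3 turned to 0.23, and on those of position 0 E2f5 probe A turned to 0.17. Without arrays 1 and 3 together, an alternative chosen after seeing the data, Rb1 probe A had 0.054 and E2f5 probe A 0.19. Leaving out 1 array at a time, the means ran from -0.084 to 0.024 for Rb1 probe A, -0.30 to 0.077 for E2f3, -0.23 to 0.018 for E2f5 probe A, -0.027 to 0.32 for E2f5 probe B, 0.45 to 1.58 for Rb1 probe B, 0.16 to 0.50 for Tfdp1 and -0.19 to 0.056 for E2f6. The count of member spots at an unadjusted p under 0.05, which was 2, ran from 0 to 2 with 1 array left out. It was 0 without centring, and 1 with array weights, on focus position 10 alone and without arrays 1 and 3. That spot was E2f1 with array weights and on focus position 10 alone. Without arrays 1 and 3 it was Rb1 probe B, which then rested on 2 arrays. The cause of these changes was not tested. Over all spots, the positive and negative counts at that p were 270 and 1837 without centring and 792 and 362 when centred on spots measured on all arrays, against 554 and 592. Counting only pairs of spots measured on all arrays, 62.3% had means of the same sign. No paired analysis was possible because all arrays form a single group and each already holds both RNAs. Ratios alone do not tell dim spots from bright ones.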
